A study of Mus musculus with 12 samples.

Results

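The kidney's distal tubule genes for calcium and magnesium handling were followed across 3 genotypes of mice that model methylmalonic acidemia, a deficiency of the mitochondrial enzyme methylmalonyl-CoA mutase that is complicated by kidney disease. The 8 genes were Slc12a3, Trpm6, Trpv5, Calb1, S100g, Pvalb, Slc8a1 and Atp2b1, of 19934 genes tested. They were taken by symbol: a probe set counted for a gene when the platform annotation gave that symbol alone, and the probe set with the highest mean over the 12 arrays was used. Slc8a1 had a further, dimmer probe set, and the other genes had 1 each. All 12 mice were C57BL/6 females that had eaten a high-protein diet for 2 months, and total RNA of the whole kidney was measured on 1 array per mouse. Mutants (Mut-/-) lacked functional Mut and carried the transgene TgINS-Alb-Mut, heterozygotes (Mut+/-) kept 1 intact allele, and wild-type mice (Mut+/+) kept both, with 4 mice in each group. The transgene expresses Mut from the albumin promoter, which is active in hepatocytes, and the labels name it in the mutants alone, so loss of Mut and presence of the transgene cannot be told apart. The ages of the mice are not given in the sources used here.

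The distal convoluted tubule and the connecting tubule that follows it set the final calcium and magnesium content of urine. Sodium and chloride enter cells of the distal convoluted tubule by the thiazide-sensitive cotransporter. In these segments magnesium and calcium enter through channels of the apical membrane. Calcium-binding proteins carry calcium across the cell, and an exchanger and a pump move it out at the blood side. Vitamin D and parathyroid hormone are known to raise expression of the calcium channel and the binding proteins in this segment. In RNA of a whole kidney, fewer cells of a type and less RNA per cell cannot be told apart.

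Promoter windows are shown for those genes called lower in mutants than in wild-type mice that the RefSeq table holds, and for S100g, which was higher in mutants than in heterozygotes. Each runs from 250 bases before to 50 bases after the start of transcription in RefSeq, assembly GRCm38.p6, 5′ to 3′ on the gene's strand, and capitals mark matches to 2 motifs, the TATA box motif TATAAA and the nuclear receptor half-site AGGTCA, which reads TGACCT on the other strand. They lie at chr8:94328958-94329257 on the plus strand (Slc12a3), chr17:81738338-81738637 on the minus strand (Slc8a1), chr19:18749480-18749779 on the plus strand (Trpm6) and chrX:162964550-162964849 on the minus strand (S100g).
Slc12a3: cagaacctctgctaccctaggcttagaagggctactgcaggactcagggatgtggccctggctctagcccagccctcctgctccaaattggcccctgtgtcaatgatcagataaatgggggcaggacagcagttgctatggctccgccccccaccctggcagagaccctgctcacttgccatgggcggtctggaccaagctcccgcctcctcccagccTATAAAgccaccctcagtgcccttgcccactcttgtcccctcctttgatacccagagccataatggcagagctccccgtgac
Slc8a1: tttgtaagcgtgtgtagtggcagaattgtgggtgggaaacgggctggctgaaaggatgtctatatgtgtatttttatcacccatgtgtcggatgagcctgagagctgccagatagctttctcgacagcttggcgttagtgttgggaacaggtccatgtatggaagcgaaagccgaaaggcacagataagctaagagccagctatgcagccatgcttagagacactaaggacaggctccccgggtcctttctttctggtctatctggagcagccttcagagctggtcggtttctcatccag
Trpm6: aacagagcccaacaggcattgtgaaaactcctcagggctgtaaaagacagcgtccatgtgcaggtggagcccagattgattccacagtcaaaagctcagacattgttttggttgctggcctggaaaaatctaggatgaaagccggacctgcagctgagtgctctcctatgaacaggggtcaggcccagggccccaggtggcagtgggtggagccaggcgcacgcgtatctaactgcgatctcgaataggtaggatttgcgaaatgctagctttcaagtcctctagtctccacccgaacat
S100g: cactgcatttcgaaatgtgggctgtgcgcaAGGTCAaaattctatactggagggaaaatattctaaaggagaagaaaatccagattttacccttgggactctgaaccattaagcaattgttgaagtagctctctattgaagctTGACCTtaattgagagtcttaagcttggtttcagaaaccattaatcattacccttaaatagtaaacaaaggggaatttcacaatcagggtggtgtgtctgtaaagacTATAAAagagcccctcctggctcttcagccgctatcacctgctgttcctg

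Slc12a3, Slc8a1 and Trpm6 fell together in mutants, and their windows shared none of the motifs searched. A TATAAA began 32 bases before the start site of Slc12a3 and 43 bases before that of Trpv5, and in S100g it began at the annotated start site itself. Of 32851 RefSeq windows of the same length, 13.6% held TATAAA on either strand. This set leaves out the windows of a whole chromosome, and it is what all windows means here. S100g had AGGTCA matches that began 220 and 107 bases before the start site, a motif found in 16.3% of all windows. GTTAAT, the half-site of hepatocyte nuclear factor 1, was in none of the 9 windows of the 7 genes the table holds, and in 7.1% of all windows. G and C made up 60.3% of the Slc12a3 window, 50.7% of Slc8a1, 53.0% of Trpm6 and 41.0% of S100g, against a median of 52.7% over all windows. A match is a description of the letters in the window and does not show that a factor binds there.

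Values are log2 levels after RMA, which corrects for background, brings the arrays to 1 distribution and reduces the probes of each set to 1 value. Mut itself, listed as Mmut, stood at 8.35 ± 0.12 (SD, n = 4) in mutants and at 10.47 to 10.60 in wild-type mice, 4.52-fold lower in mutants (limma adjusted p = 1.4e-10), with the 4 heterozygotes between at 9.87 to 9.97. Markers of other kidney segments were bright on every array, as with Umod of the thick ascending limb at 13.17 to 13.34 and Slc34a1 of the proximal tubule at 13.17 to 13.43. Mutant replicate 3 stood apart from the other 11 arrays by transcripts of the adrenal cortex: Cyp11b1, a steroid hydroxylase, was at 12.65 against 5.40 to 6.58 elsewhere, and Star, a cholesterol carrier, at 11.99 against 6.64 to 6.91. The other adrenal genes of the marker list, Cyp11b2 and Hsd3b1, were at 8.70 and 8.06 there and at no more than 6.67 and 4.51 elsewhere, and its 4 fat genes were not raised. Lrp2 of the proximal tubule was lowest on this array, at 12.23 against 12.75 or more elsewhere. Umod and Slc34a1 were not lowest there. The mutants' differences in the 8 genes are therefore also given without mutant replicate 3, and so are the calls of other named genes that ended without it. The genes picked later for their likeness to the 8 are not covered.

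Mutants had less RNA of the cotransporter, the magnesium channel, a calcium-binding protein and the exchanger than wild-type mice. Of the 8 genes, 4 were called lower (limma, adjusted p under 0.05 over all 19934 genes) and 0 higher, where 6.69% of all genes were called lower and 2.96% higher. The falls were 2.07-fold for Slc8a1, 2.02-fold for Calb1, 1.43-fold for Trpm6 and 1.27-fold for Slc12a3. The median difference of the 8 genes was -0.43 on the log2 scale, against 0.00 over all genes. In 5 of the 8, all 4 mutants lay below all 4 wild-type mice, a separation in either direction that 14.7% of all genes had. Without mutant replicate 3, 3 of the 8 were called, and 1553 of all genes in either direction.

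**Figure D1:**
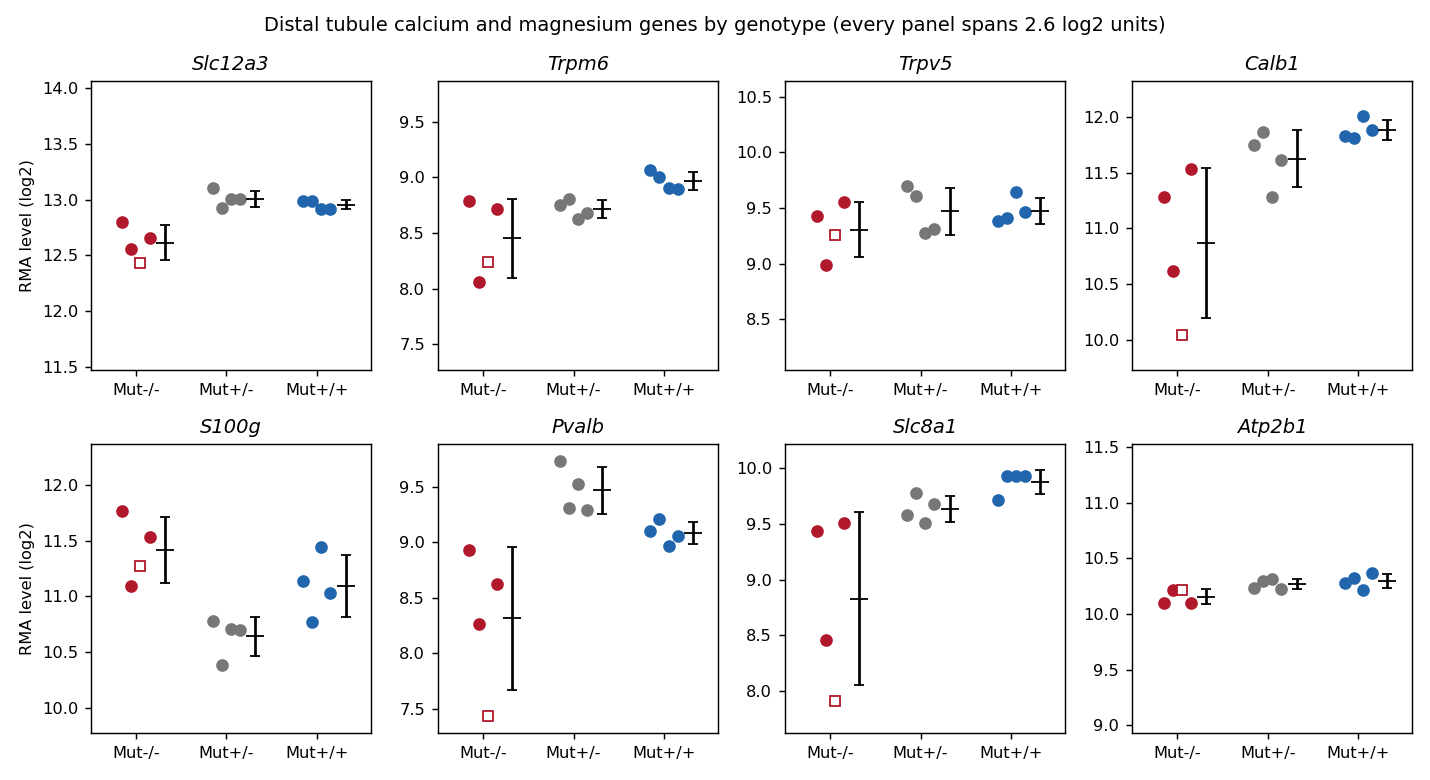
RMA level (log2) of each gene on each of the 12 arrays, by genotype; points are mice, the open square is mutant replicate 3, and the bar beside each group is its mean with its SD (n = 4). The mutants of Calb1, Slc8a1 and Pvalb spread over 1.49 to 1.60 log2 units, while Atp2b1 moved by 0.12 among them, and S100g is highest in the mutants.

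Slc12a3 encodes the thiazide-sensitive sodium chloride cotransporter, the protein that defines the distal convoluted tubule. Its level was 12.80, 12.56, 12.43 and 12.66 in mutant replicates 1 to 4. In heterozygotes it was 13.10, 12.93, 13.00 and 13.01, and in wild-type mice 12.99, 12.99, 12.92 and 12.92. The highest mutant lay below the lowest mouse of either other group, and those groups overlapped. The mutant mean was 12.61 ± 0.16 (SD, n = 4), lower than wild type (12.95 ± 0.04) by 0.34 (SE 0.07, limma adjusted p = 0.00878) and lower than heterozygotes (13.01 ± 0.07) by 0.40, a 1.32-fold difference (SE 0.07, limma adjusted p = 0.00982). Heterozygotes and wild type differed by 0.06, with a 95% confidence interval of -0.09 to 0.21 (limma adjusted p = 0.804). Both falls, computed without mutant replicate 3, kept their call, at 0.28 (limma adjusted p = 0.0169) and 0.34 (limma adjusted p = 0.0168). No single array left out ended either call.

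Trpm6 is the apical channel through which magnesium enters distal convoluted tubule cells. Mutant replicates 1 to 4 stood at 8.79, 8.06, 8.24 and 8.72, heterozygotes at 8.75, 8.81, 8.63 and 8.68, and wild-type mice at 9.07, 9.0, 8.90 and 8.90. Replicates 1 and 4 of the mutants lay among the heterozygotes, and every mutant and heterozygote lay below every wild-type mouse. The mean fell from 8.97 ± 0.08 in wild type to 8.45 ± 0.36 in mutants, a difference of -0.51 (SE 0.13, limma adjusted p = 0.0254). Heterozygotes, at 8.72 ± 0.08, did not pass the test against either group: the difference was -0.25 to wild type (limma adjusted p = 0.487) and mutants differed from them by -0.26 (limma adjusted p = 0.370), or by -0.19 without mutant replicate 3 (limma adjusted p = 0.586). The heterozygote and wild-type arrays did not overlap, so a two-sided exact permutation test gave p = 0.0286, the smallest that 4 against 4 can give. The call in mutants ended without mutant replicate 3 (-0.44, limma adjusted p = 0.0629) and without wild-type replicate 1, 2 or 4 (limma adjusted p up to 0.0689).

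Trpv5, the apical calcium channel of the late distal convoluted and connecting tubule, showed no called difference. Its levels were 9.42, 8.98, 9.25 and 9.56 in mutants, 9.70, 9.60, 9.27 and 9.31 in heterozygotes, and 9.38, 9.41, 9.64 and 9.46 in wild-type mice. The 3 groups overlapped, with mutant replicate 2 the lowest of the 12. Mutants differed from wild type by -0.17, with a 95% interval of -0.43 to 0.09 (limma adjusted p = 0.434), an interval that still holds the fall measured for Slc12a3. Against heterozygotes the difference was also -0.17 (limma adjusted p = 0.591), and heterozygotes and wild type differed by 0.00 (limma adjusted p = 0.995). Leaving out mutant replicate 3 gave mutant differences of -0.15 to wild type (limma adjusted p = 0.578) and -0.15 to heterozygotes (limma adjusted p = 0.691).

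Calb1 encodes calbindin, the abundant calcium buffer of distal convoluted and connecting tubule cells. Its level was 11.28, 10.62, 10.04 and 11.54 in mutants, 11.75, 11.87, 11.28 and 11.61 in heterozygotes, and 11.83, 11.81, 12.01 and 11.89 in wild-type mice. Every mutant lay below every wild-type mouse, while mutant replicates 1 and 4 lay above the lowest heterozygote. Mean levels were 10.87 ± 0.67, 11.63 ± 0.25 and 11.89 ± 0.09 (SD, n = 4 each). The mutants' difference of -1.02 to wild type was called (SE 0.25, limma adjusted p = 0.0203), and that of -0.76 to heterozygotes was not (limma adjusted p = 0.134). Calb1 was still called against wild type without mutant replicate 3, at 1.67-fold lower (limma adjusted p = 0.0231), and the difference to heterozygotes was -0.48 (limma adjusted p = 0.222). The call ended without wild-type replicate 3 or 4 (limma adjusted p up to 0.0568), and without mutant replicate 4 the difference to heterozygotes was called as well (-0.98, limma adjusted p = 0.0324).

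S100g encodes a small calcium-binding protein of the S100 family, a classical vitamin D target in intestine and kidney, and it went the other way. Mutants stood at 11.76, 11.09, 11.27 and 11.54, heterozygotes at 10.78, 10.38, 10.70 and 10.70, and wild-type mice at 11.13, 10.77, 11.44 and 11.03. Every mutant lay above every heterozygote, and wild-type mice overlapped the other groups. S100g was 1.71-fold higher in mutants than in heterozygotes (0.78, SE 0.15, limma adjusted p = 0.0181), and this remained without mutant replicate 3 (0.82, limma adjusted p = 0.0224). Without heterozygote replicate 2 the call ended (0.69, limma adjusted p = 0.0537). Against wild type the mutants' difference was 0.32 (95% interval -0.01 to 0.65, limma adjusted p = 0.213; 0.37 without mutant replicate 3, adjusted p = 0.208), and heterozygotes differed from wild type by -0.45 (limma adjusted p = 0.281). The wild-type mean of 11.09 ± 0.28 lay between 11.42 ± 0.29 in mutants and 10.64 ± 0.18 in heterozygotes.

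Pvalb encodes parvalbumin, a calcium buffer of the early distal convoluted tubule that is also abundant in skeletal muscle. Its level was 8.93, 8.26, 7.44 and 8.63 in mutants, 9.73, 9.31, 9.53 and 9.29 in heterozygotes, and 9.10, 9.21, 8.97 and 9.05 in wild-type mice. The 3 groups did not overlap, with heterozygotes highest and mutants lowest. Mutants were 2.22-fold lower than heterozygotes (-1.15, SE 0.23, limma adjusted p = 0.0197). The difference to wild type was -0.77 and did not pass the test (SE 0.23, limma adjusted p = 0.0538), and heterozygotes differed from wild type by 0.38 (limma adjusted p = 0.558). Each of the 3 separations gives a two-sided exact permutation p of 0.0286. Without mutant replicate 3 the differences were -0.86 to heterozygotes (limma adjusted p = 0.00684) and -0.48 to wild type (limma adjusted p = 0.0527). The call against heterozygotes ended without heterozygote replicate 1 or 3 (limma adjusted p up to 0.0671), and Pvalb was called against wild type without mutant replicate 1 or 4 (limma adjusted p = 0.0137 and 0.0442). Of 7 skeletal muscle genes on a marker list 0 were called, with a median difference between mutants and wild type of 0.08, and their mean level was between 6.74 and 7.02 on all 12 arrays.

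Slc8a1 encodes the sodium-calcium exchanger that extrudes calcium at the basolateral membrane. Its level was 9.44, 8.46, 7.91 and 9.51 in mutants, 9.58, 9.77, 9.51 and 9.68 in heterozygotes, and 9.71, 9.93, 9.93 and 9.93 in wild-type mice. Mutant replicates 2 and 3 lay far below every other array, and the highest mutant lay just under the lowest heterozygote. The mutant mean of 8.83 ± 0.78 was lower than the wild-type mean of 9.88 ± 0.11 by 1.05 (SE 0.27, limma adjusted p = 0.0262), and differed from the heterozygote mean of 9.64 ± 0.12 by -0.81 (limma adjusted p = 0.144). Heterozygotes differed from wild type by -0.24 (limma adjusted p = 0.774). The gene's dimmer probe set had means of 7.82 ± 1.01, 8.93 ± 0.12 and 9.29 ± 0.29 in mutants, heterozygotes and wild type, which puts mutants 1.47 below wild type. Slc8a1 without mutant replicate 3 was 1.67-fold lower than wild type (limma adjusted p = 0.0313) and differed from heterozygotes by -0.50 (limma adjusted p = 0.236). The call ended without mutant replicate 2 or wild-type replicate 2, 3 or 4 (limma adjusted p up to 0.0738), and without mutant replicate 4 the difference to heterozygotes was called (limma adjusted p = 0.0439).

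Atp2b1, a plasma membrane calcium pump found in many cell types of the kidney, varied least. Its level was 10.10, 10.21, 10.21 and 10.09 in mutants, 10.24, 10.30, 10.31 and 10.23 in heterozygotes, and 10.28, 10.32, 10.21 and 10.37 in wild-type mice. The highest mutants matched the lowest wild-type mouse and lay just under the lowest heterozygote. The difference to wild type was -0.14 (95% interval -0.25 to -0.03, limma adjusted p = 0.102) and that to heterozygotes -0.11 (limma adjusted p = 0.305). Neither passed the test, nor did heterozygotes against wild type (-0.03, limma adjusted p = 0.878). With mutant replicate 3 left out the mutants' differences were -0.16 (limma adjusted p = 0.0940) and -0.13 (limma adjusted p = 0.280).

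**Figure D2:**
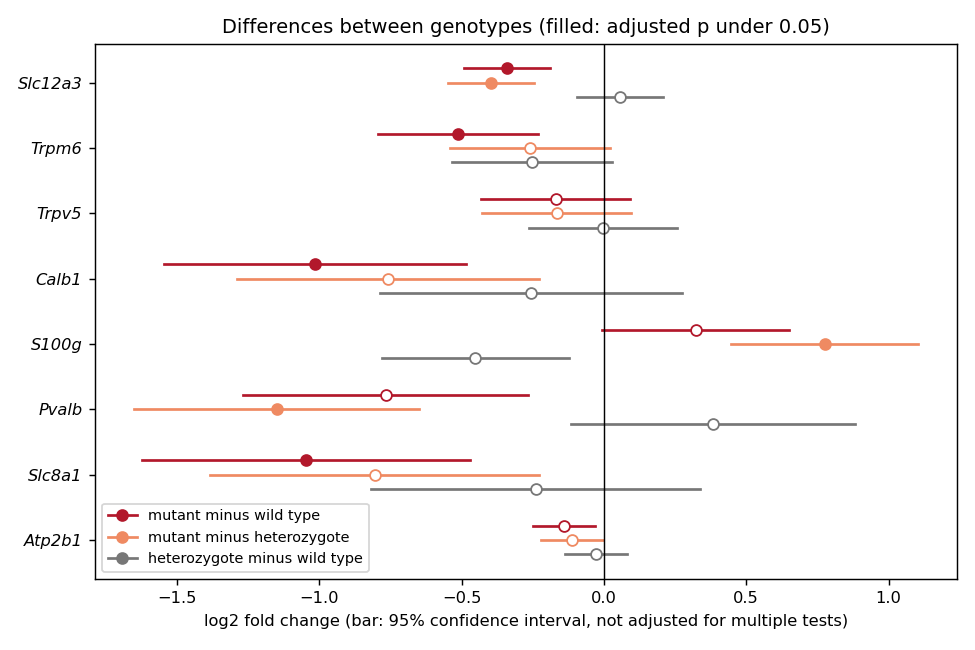
Difference between genotypes of each gene in log2 units, with the 95% confidence interval of the limma fit, not adjusted for multiple tests; filled points have an adjusted p under 0.05. Slc12a3 is filled against both control groups, Pvalb and S100g against heterozygotes alone, and Calb1, Slc8a1 and Trpm6 against wild type alone.

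Against heterozygotes 3 of the 8 genes were called in mutants, Slc12a3 and Pvalb lower and S100g higher, where 1.46% of all genes were called lower and 1.07% higher. The median difference was -0.33, against -0.01 over all genes. The arrays did not overlap in 5 genes, 4 lower (Slc12a3, Pvalb, Slc8a1 and Atp2b1) and 1 higher (S100g), a separation that 9.69% of all genes had. Both comparisons use the same mutant arrays, and whether a gene's difference to wild type differs from its difference to heterozygotes is the heterozygote comparison itself. There 0 of the 8 genes were called by limma, where 0.0702% of all genes were called lower and 0.0652% higher. The lowest unadjusted limma p of the 8 was 0.0105, that of S100g. By the exact permutation test 2 genes had a p under 0.05 (Trpm6, lower in heterozygotes, and Pvalb, higher). These 2 were also the genes whose heterozygote and wild-type arrays did not overlap, as for 8.44% of all genes. The median difference of the 8 genes was -0.13.

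Mutant mice spread more widely than the mice of either control group in all of these genes but Atp2b1, though for S100g the mutant and wild-type spans were both 0.67. Mutant levels spanned 1.60 log2 units for Slc8a1, 1.5 for Calb1 and 1.49 for Pvalb, wider than the mutant span of 99.4%, 99.3% and 99.3% of all genes. Those of Trpm6, S100g and Trpv5 spanned 0.73, 0.67 and 0.57, wider than in 96.5%, 95.7% and 93.7% of genes. Slc12a3 spanned 0.37 and Atp2b1 0.12, wider than in 81.8% and 16.5% of genes.

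The order of the mutant mice was similar from gene to gene. Mutant replicate 3 had the lowest level of all 12 arrays for Slc12a3, Calb1, Slc8a1 and Pvalb, and replicate 2 for Trpm6 and Trpv5. Replicates 2 and 3 both lay below replicates 1 and 4 in 7 of the 8 genes, S100g included, and in 17.3% of all genes. Atp2b1 was the exception. The low values of replicate 3 were not particular to these genes. It also had the lowest mean of the 12 arrays for the proximal tubule, connecting tubule and thick ascending limb marker lists. The same held for the principal cell, intercalated cell, endothelial and smooth muscle lists. It did not hold for the distal convoluted tubule or podocyte lists.

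Lcn2, an early marker of tubular injury, stood at 8.35, 11.29, 11.33 and 9.69 in mutant replicates 1 to 4, against 7.76 to 8.31 in heterozygotes and 7.01 to 7.38 in wild-type mice. Lcn2 was 7.73-fold higher in mutants than in wild type (limma adjusted p = 0.00272; 5.91-fold without mutant replicate 3, adjusted p = 0.00529), and it was highest in the mutants with the lowest Calb1 and Slc8a1. Havcr1, the kidney injury molecule gene, did not follow that order: it stood at 8.41, 8.18, 9.35 and 7.47 in mutants, 6.25, 6.25, 8.86 and 8.70 in heterozygotes, and 6.06 to 6.60 in wild type. Heterozygote replicates 3 and 4 thus lay above 3 of the 4 mutants. Havcr1 was 4.13-fold higher in mutants than in wild type (limma adjusted p = 0.0359), and Cd44, an adhesion receptor gene, 1.48-fold higher (limma adjusted p = 0.0470). Both calls ended without mutant replicate 3 (limma adjusted p = 0.0872 and 0.114), and with any 1 of 7 and of 10 arrays left out. The mean of the 9 measured genes of the injury list was 7.96, 8.49, 8.95 and 8.29 in the mutants, 7.73 to 8.06 in heterozygotes and 7.48 to 7.67 in wild type. In mutants 5 of the 9 were called higher than in wild type with 0 lower, where 2.96% of all genes were called higher. The part of tubular injury in the falls was not tested. Replicate 3, which carries the adrenal transcripts, was among these low arrays, and the falls of Slc12a3, Calb1 and Slc8a1 passed the test without it.

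**Figure D3:**
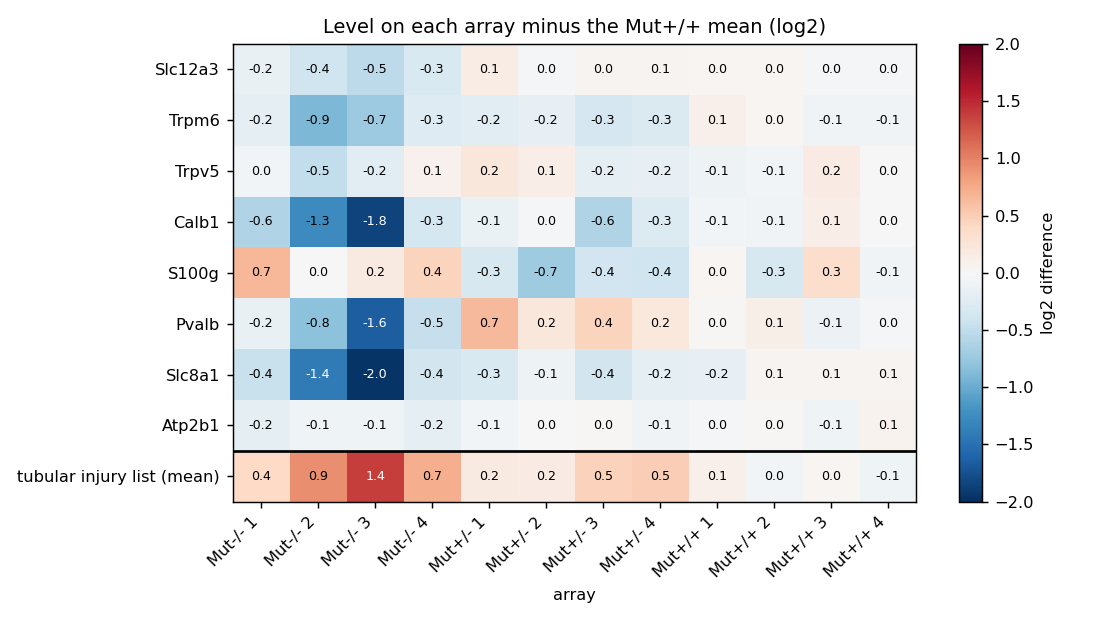
Level of each gene on each array minus its wild-type mean, in log2 units, with the mean of the tubular injury list in the bottom row; columns are arrays and colours run from -2 (blue) to 2 (red). Mutant replicates 2 and 3 hold the lowest values of Calb1 (10.62 and 10.04) and Slc8a1 (8.46 and 7.91), and high values of the injury list (8.49 and 8.95).

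The 8 genes did not shift as 1 block. To see which moved away from Slc12a3, the marker of the segment, each level was taken as a difference from Slc12a3 on the same array; the size of such a difference depends on the probes, so its change between groups alone is compared. S100g relative to Slc12a3 was -1.2 ± 0.19 in mutants, -2.37 ± 0.12 in heterozygotes and -1.86 ± 0.30 in wild type (SD, n = 4), and no 2 groups overlapped. Pvalb relative to Slc12a3 was -4.30 ± 0.50 in mutants, -3.54 ± 0.15 in heterozygotes and -3.87 ± 0.07 in wild type, and heterozygotes lay above both other groups without overlap. Trpm6 relative to Slc12a3 differed between heterozygotes and wild type alone (-0.31, no overlap). Each of these separations has a two-sided exact permutation p of 0.0286.

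Over the 21 tests of 7 genes in 3 comparisons, no adjusted p was under 0.05, and the lowest was 0.1. An exact test of 4 against 4 cannot go below 0.0286, so at least 13 of the 21 tests would have to reach it for any to pass, and 6 did. With both control groups in 1 set, 2 of 7 two-sided exact permutation tests passed after adjustment. S100g relative to Slc12a3 was higher in mutants by 0.92 (exact permutation p = 0.00404, adjusted 0.0283). Pvalb relative to Slc12a3 was lower by 0.59 (exact permutation p = 0.0121, adjusted 0.0424). For these 2 genes the control groups did not overlap each other, so the set mixes 2 separated genotypes. Its p-values do not compare mutants with either control group alone. Without mutant replicate 3 the differences were 0.91 for S100g and -0.36 for Pvalb, and neither passed (exact permutation p = 0.0121 and 0.0364, adjusted 0.0848 and 0.127). S100g also failed without mutant replicate 2 or 4. With 1 mutant left out its exact permutation p was 0.0121 each time, the smallest that the arrays left can give. Over 7 tests that p does not pass by itself, and S100g passed without mutant replicate 1, where Pvalb reached it too. The failures of S100g are thus largely set by the number of arrays, while its difference stayed at 0.87 to 1.01. Pvalb passed only without mutant replicate 1 or wild-type replicate 1 or 3 (adjusted exact permutation p = 0.0424 each).

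Calb1 and Slc8a1 differed from wild type by -0.67 and -0.71 relative to Slc12a3, and the groups overlapped (exact permutation p = 0.0857 and 0.0571). These differences were -0.46 for both genes without mutant replicate 3, and that of Pvalb went from -0.43 to -0.19. Trpm6, at -0.17, and Trpv5, at 0.17, differed little from Slc12a3 in this measure (exact permutation p = 0.257 for both).

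**Figure D4:**
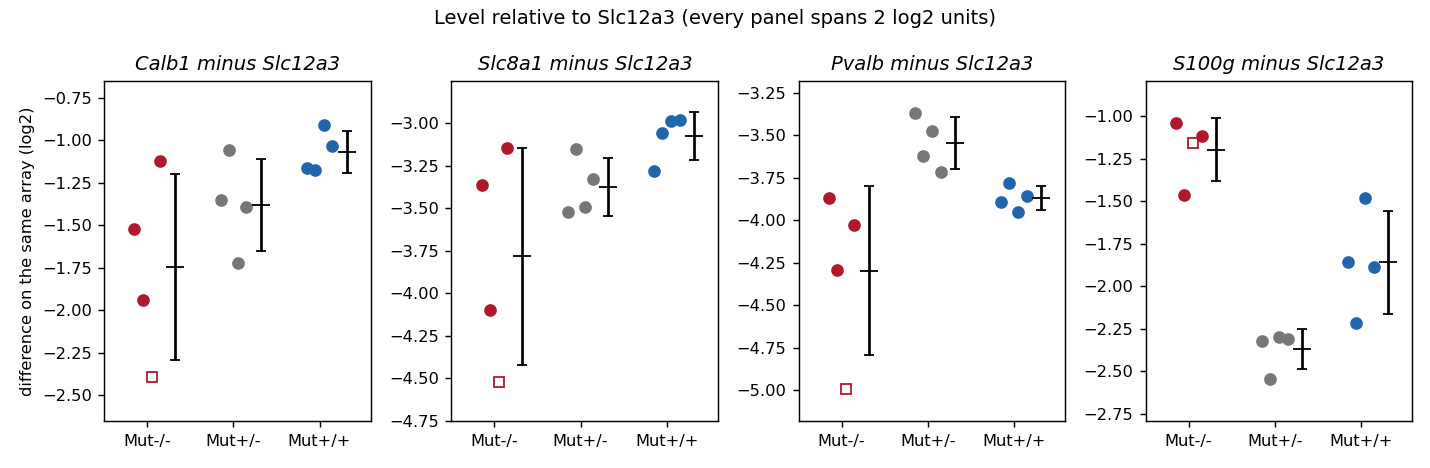
Level of Calb1, Slc8a1, Pvalb and S100g minus that of Slc12a3 on the same array, in log2 units, by genotype; points are mice, the open square is mutant replicate 3, and bars are the group mean with its SD (n = 4). S100g separates all 3 genotypes, while mutant and wild-type points overlap for Calb1, Slc8a1 and Pvalb.

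Among other genes of calcium handling few were called. Of 16 measured of 19 listed, 2 were called higher in mutants than in wild type and 1 lower, with a median difference of 0.03. Over all genes 2.96% were called higher and 6.69% lower, which also applies to the lists that follow. The 1 gene called lower here is near that share. Cyp27b1, the kidney hydroxylase that makes active vitamin D, was 2.65-fold higher than in wild type (limma adjusted p = 0.0098) and 2.64-fold higher than in heterozygotes (limma adjusted p = 0.0241). Its levels were 7.09, 8.57, 7.68 and 8.97 in mutants, at most 6.81 in wild type and at most 6.80 in heterozygotes, so the mutants lay above both groups. Cyp27b1 was 2.90-fold higher than in wild type without mutant replicate 3 (limma adjusted p = 0.0100). Slc8b1, a mitochondrial sodium-calcium exchanger, was 1.21-fold lower than in wild type (limma adjusted p = 0.00787). Its heterozygotes also lay below wild type without overlap (-0.21, limma adjusted p = 0.182). Mutants differed from heterozygotes by -0.07 (limma adjusted p = 0.643). Anxa2, an annexin, was 1.27-fold higher than in wild type (limma adjusted p = 0.034), a call that ended on leaving out any 1 of 6 arrays, mutant replicate 3 among them (limma adjusted p up to 0.0911). Against heterozygotes Anxa2 was not called (0.34, limma adjusted p = 0.0735). The other 13 genes were not called, among them the vitamin D receptor gene Vdr (-0.07), the calcium-sensing receptor gene Casr (-0.07) and the channel gene Trpv6 (0.10).

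Of 19 measured magnesium genes of 20 listed, 5 were called lower in mutants than in wild type and 0 higher, with a median of -0.17. Cnnm2, a basolateral magnesium transport regulator of the distal convoluted tubule, stood at 9.37, 9.15, 9.07 and 9.35 in mutants and at 9.62 or above in every other mouse. It was 1.41-fold lower than in wild type (limma adjusted p = 0.00149) and 1.41-fold lower than in heterozygotes (limma adjusted p = 0.00372). Slc41a2, a magnesium transporter, was 1.39-fold lower than in wild type (limma adjusted p = 0.0067), and Egfr, the receptor of the magnesiotropic hormone EGF, was 1.2-fold lower (limma adjusted p = 0.0369). The Egfr call ended on leaving out any 1 of 6 arrays (limma adjusted p up to 0.112). Neither Slc41a2 nor Egfr was called against heterozygotes (-0.22 and -0.13, limma adjusted p = 0.256 and 0.439).

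Genes that regulate the cotransporter protein also included falls: 4 of 16 measured of 18 listed were called lower and 0 higher, with a median of -0.15. Klhl3, an adaptor of the ubiquitin ligase that degrades WNK kinases, was 1.28-fold lower than in wild type (limma adjusted p = 0.0025) and 1.25-fold lower than in heterozygotes (limma adjusted p = 0.0121). Stk39, the kinase that phosphorylates the cotransporter, was 1.28-fold lower than in wild type (limma adjusted p = 0.00718), and Wnk3, a WNK kinase, 1.26-fold lower (limma adjusted p = 0.0141). Neither Stk39 nor Wnk3 was called against heterozygotes (-0.20 and -0.17, limma adjusted p = 0.181 and 0.285). Without mutant replicate 3, 2 of the calcium list, 5 of the magnesium list and 3 of this list were called.

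Marker lists place these falls beside those of the cells around them. Of all genes 6.69% were called lower and 2.96% higher. Of 12 distal convoluted tubule markers 3 were called lower and 0 higher, with a median of -0.17: Cwh43 (1.31-fold, limma adjusted p = 0.0438), Slc16a7 (1.29-fold, limma adjusted p = 0.0245) and Klhl3. The calls of Cwh43 and Slc16a7 ended on leaving out any 1 of 9 and of 4 arrays. The mean of these 12 genes was 9.89 to 10.14 in mutants, 10.13 to 10.27 in heterozygotes and 10.14 to 10.20 in wild type. Of 8 measured connecting tubule markers 0 were called, with a median of -0.07 and Gata3, a transcription factor gene, nearest to the threshold (-0.23, limma adjusted p = 0.0727).

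Neighbouring segments and other cell types held calls too. The endothelial, smooth muscle and podocyte lists, given further below, had medians of -0.37, -0.35 and -0.22. These were lower than the median of the distal convoluted tubule list. A single call in a list of 10 or 11 genes is near the share over all genes. Of 10 thick ascending limb markers 1 was called lower, Tmem207 (1.73-fold, limma adjusted p = 0.0213), and its call ended without wild-type replicate 2, 3 or 4 (limma adjusted p up to 0.0729). Among 9 principal cell markers Aqp3, a basolateral water channel, was 1.23-fold higher (limma adjusted p = 0.00505) and Aqp4 1.49-fold lower (limma adjusted p = 0.0437; 0.0657 without mutant replicate 3 and up to 0.121 on leaving out another array). Of 10 intercalated cell markers 4 were called lower and 1 higher: Slc26a4, the chloride-bicarbonate exchanger pendrin, fell 1.57-fold (limma adjusted p = 0.000179), Insrr, an insulin receptor-related receptor gene, fell 1.56-fold (limma adjusted p = 0.000327), and Aqp6 rose 1.29-fold (limma adjusted p = 0.00718). Of 11 measured proximal tubule markers 1 was called, Cubn, 1.28-fold lower (limma adjusted p = 0.00401).

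**Figure D5:**
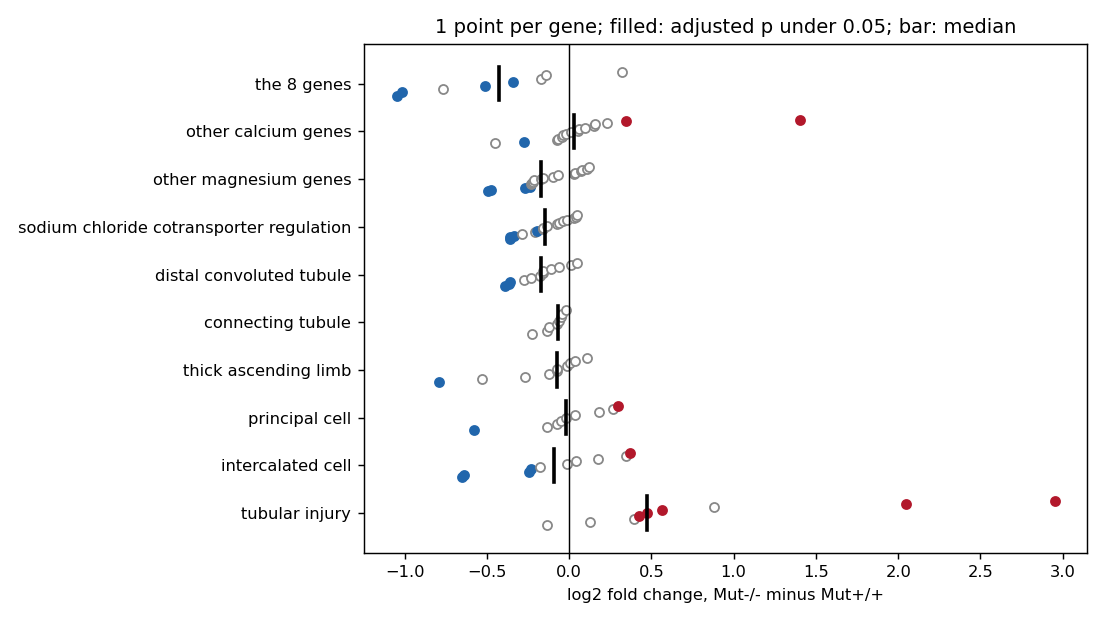
Difference between mutants and wild type of every measured gene in the lists drawn, in log2 units. Each gene is 1 point, filled blue where called lower and red where called higher, with a black bar at the list's median. Other lists are not drawn. Their medians were -0.37 (endothelial), -0.35 (smooth muscle), -0.22 (podocyte), 0.03 (proximal tubule), 0.08 (skeletal muscle), 0.10 (fat and adrenal) and 0.18 (macrophage). The median of the 8 genes is -0.43, of the distal convoluted tubule list -0.17, of the connecting tubule list -0.07 and of the tubular injury list 0.47.

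Across the 12 arrays Slc8a1 and Calb1 followed the rest of the 8 genes most closely, with a Pearson r of 0.95 with the mean of the other 7, each gene scaled over the arrays. The r was 0.90 for Trpm6, 0.84 for Slc12a3, 0.78 for Pvalb and 0.62 for Trpv5. It was 0.19 for Atp2b1 and -0.40 for S100g. These values describe 12 arrays that share 3 genotypes, so they carry the differences between groups.

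Outside the 8, among 15755 genes with a mean level of at least 6, those most like the mean of the 8 were Reck (r = 0.98), D630023F18Rik (0.97), Atg10 (0.96), Igf2 (0.96), Gm5820 (0.95) and Catspere2 (0.95). Igf2, the fetal growth factor gene, was 4.67-fold lower in mutants than in wild type (limma adjusted p = 0.00567) and Reck, a membrane inhibitor of matrix metalloproteinases, 1.38-fold lower (limma adjusted p = 0.00422). Reck (r = 0.97), Rtn4ip1 (0.96) and Nuak1 (0.95) were most like Calb1 alone. All of these were picked by their likeness to the 8 genes on the same arrays. Their falls and p-values thus largely follow from that choice and are no separate result. Their values without mutant replicate 3 are not given.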

How the data were processed

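Whole-kidney RNA was measured on 12 Affymetrix arrays, 1 per mouse and 4 per genotype, grouped by the sample titles. The values the authors deposited are log2 levels for each probe set after RMA. The submitters' processing notes name Affymetrix Expression Console, version 1.2.1. RMA compresses differences near background. The sample descriptions give a mouse gene array while the labelling text gives a human one, and the probe sets matched mouse genes. No genome build was given for the probe sets. Of 35552 probe sets, 21785 had a single gene symbol and the other 13767 were not used. The brightest probe set stood for each of 19934 genes.

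All 3 groups entered a single limma fit (version 3.58.1, lmFit and eBayes, R 4.3.3, with the data.table package, version 1.17.8). Adjustment of p-values was by Benjamini-Hochberg across all genes, and genes were called at an adjusted p under 0.05. P-values measure the spread between mice, and precision is limited by the number of arrays. Exact permutation tests used scipy 1.17.1 and pandas 2.3.3 in Python 3.11.15, and figures used matplotlib 3.10.9. The limma fit was tried on simulated data, and the exact permutation test on fixed sets of values with a known p.

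The 8 genes and the 16 gene lists were chosen with earlier results of these data known. Of each list, up to 3 called genes with the largest change between mutants and wild type were named, or the gene with the smallest p. Vdr, Casr and Trpv6 were named after their values were seen. Alternatives were the replicate block, each array left out, a filter on dim genes, the mean of probe sets, quantile normalization, median centring, another variance prior, array weights and only the groups compared.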

Additional observations from a re-analysis of the deposited data

Results flagged for a closer look

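Among the 24 sets of 4 arrays (8 genes in 3 genotypes), 1 held an array far from the others. Slc8a1 in wild-type replicate 1 was at 9.71 while the other wild-type mice were all at 9.93. The gap was 0.992 of the group's range, above Dixon's critical value, which chance passes in about 1 of 20 such sets. Without that array the difference of Slc8a1 between mutants and wild type was -1.10 (limma adjusted p = 0.0390).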

How the results depend on the processing

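Of 480 values of single genes under the alternatives, 449 kept their direction and their side of the threshold, 21 lost a call, 6 gained one, 4 (Trpv5 between heterozygotes and wild type, near 0) moved, and 0 reversed. Most of the 480 were results without a call, which have none to lose. Against wild type, of 20 alternatives each, the call was lost in 4 for Calb1, 6 for Slc8a1 and 5 for Trpm6. Against heterozygotes it was lost in 4 for Pvalb, 1 for Slc12a3 and 1 for S100g. The count of the 8 genes called between mutants and wild type was 4. It was 2 with a trended and robust variance prior, while the count over all genes rose from 1925 to 2096. It was 1 with only the groups compared in the fit. On leaving out each array it was 1 to 5, with 1019 to 1928 of all genes called. Between mutants and heterozygotes the count was 3, against 1 with only the groups compared. On leaving out each array it was 2 to 5, with 229 to 592 of all genes called. Slc12a3 kept its call against wild type under every alternative (limma adjusted p up to 0.0307). Relative to Slc12a3, 0 of 21 tests passed, a count the 4 against 4 design nearly fixes, against 2 of 7 with mutants set against both control groups. That count was 0 without mutant replicate 3 as well, an alternative chosen after seeing the data, and 0 to 2 on leaving out each array. With a mutant left out, 1 gene at the lowest possible exact permutation p does not pass by itself. With only the groups compared, 1154 genes were called between mutants and wild type in place of 1925, 191 in place of 506 against heterozygotes, and 78 in place of 27 between the control groups. Without wild-type replicate 2 or 4 the first count was 1125 and 1019. The cause of these changes was not tested.

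Replicate numbers are not stated to pair the mice, and same-numbered arrays were not more alike than others. Their deviations from the group means correlated at -0.24 to 0.17, and those of other pairs at -0.20 to 0.26. Such values cannot exclude a pairing. With the replicate block 5 of the 8 genes were called between mutants and wild type, Pvalb being added (limma adjusted p = 0.0470), and 1552 of all genes.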

Other observations

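Lists of other cell types of the kidney held calls as well. The shares over all genes were 6.69% called lower and 2.96% called higher in mutants than in wild type. Of 7 smooth muscle genes 5 were called lower in mutants than in wild type, with a median of -0.35, among them Acta2 (1.5-fold, limma adjusted p = 0.00874), Cnn1 (1.34-fold, limma adjusted p = 0.0283) and Smtn (1.3-fold, limma adjusted p = 0.00588). Of 8 endothelial genes 4 were called lower, with a median of -0.37, among them Emcn (1.53-fold, limma adjusted p = 0.0143), Ehd3 (1.49-fold, limma adjusted p = 0.000679) and Eng (1.32-fold, limma adjusted p = 0.0311). Of 5 measured podocyte genes 3 were called lower, with a median of -0.22. They were Podxl (1.32-fold, limma adjusted p = 0.00198), Nphs1 (1.2-fold, limma adjusted p = 0.00465) and Ptpro (1.17-fold, limma adjusted p = 0.0148). With the mean of its probe sets in place of the brightest, Nphs1 differed by -0.10 and was not called (limma adjusted p = 0.370).

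Of 7 macrophage genes 2 were called higher and 1 lower, with a median of 0.18. Lyz2 was 2.40-fold higher (limma adjusted p = 0.0281), Cd68 was 1.57-fold higher (limma adjusted p = 0.0342) and Csf1r was 1.55-fold lower (limma adjusted p = 0.0171). The Cd68 call ended without mutant replicate 3 (limma adjusted p = 0.0830). Among these genes, calls of Cnn1, Eng, Ptpro, Lyz2, Cd68 and Csf1r ended on leaving out any 1 of 4, 4, 1, 5, 6 and 2 arrays. Of the 8 fat and adrenal genes 0 were called by limma in any of the 3 comparisons, although the adrenal genes were high on mutant replicate 3, and Adipoq had the smallest p between mutants and wild type (-0.78, limma adjusted p = 0.113). Of the skeletal muscle genes that was Atp2a1 (0.15, limma adjusted p = 0.283).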
